A study of Mus musculus with 4 samples.

Results

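The mitosis genes are 43 genes whose products carry a cell from G2 through division: the G2/M cyclins and their kinase, spindle, checkpoint, kinetochore and cytokinesis proteins. They were found by gene symbol, with no measured value in the rule, and all 43 were found among the 56691 genes of the deposited table. RNA-seq was performed on 4 sarcomas of W/+ mice, which carry 1 mutant and 1 wild-type p53 allele. The labels give the genotype as p53R282W/+, by the human residue number, and the Ctl sarcomas carry it too. Sarcomas ATO 1 and ATO 2 came from mice given 35 mg arsenic trioxide (ATO) per litre of drinking water from day 90 after birth until death, and ATO is a drug studied here as a compound that restores mutant p53. Sarcomas Ctl 1 and Ctl 2 came from mice of the control group, for which the labels name PBS. Neither the age at death, the kind of sarcoma nor the site of each tumor is given, and the W/+ mice developed several kinds of sarcoma. The labels do not state that the 4 tumors came from 4 mice, so a p-value measures the spread between these samples. For all 4 samples the labels also describe a culture medium with dexamethasone, isobutylmethylxanthine and insulin, which the study's methods do not describe for tumors.

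Mitosis genes are switched on together late in the cell cycle. The MuvB complex joins B-Myb (Mybl2) and then FoxM1 (Foxm1) to drive them, and in resting cells it joins an RB family protein and E2F4 in the DREAM complex, which keeps them silent. Activated p53 represses many of them through p21 and DREAM, and their summed RNA is widely read as a measure of how much a tumor is dividing. In bulk tumor RNA, fewer dividing cells and less RNA per dividing cell cannot be told apart.

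The promoters of these genes are known for a cell cycle homology region, the element through which MuvB binds, and for CCAAT boxes, which bind NF-Y. RefSeq promoters (GRCm38.p6) were found for 36 of the 43 genes. Within the 250 bases before the start, TTTGAA or TTTAAA on either strand was present in 16 of these 36 (44.4%), against 28.1% of 27025 genes with a promoter. CCAAT on either strand was present in 26 (72.2%), against 37.5% of all genes. Both motifs were present in 14 (38.9%), against 10.1% of all genes. Within 100 bases the counts were 11, 24 and 10, against 11.3%, 21.6% and 2.09% of all genes. The motifs were not particular to the 43 genes among the related lists measured below. Within 250 bases both were present in 34.7% of 49 further mitosis genes and 36.4% of 11 MuvB core and RB family genes. The shares were 18.2% of 33 S phase genes and 5.56% of 18 APC/C and cohesin genes. Within 100 bases they were 18.4%, 0%, 3.03% and 5.56% in the same order of lists. The motifs were counted separately even where they shared bases, a gene with more than 1 start counted if any start had the motif, and a match is a run of letters and not evidence of binding. The 120 bases before the start are shown for 5 genes of different roles to let the shared letters be seen. Capitals mark both motifs on either strand. The reverse form of TTTGAA reads TTCAAA. The reverse form of CCAAT reads ATTGG. All windows lie upstream of the start in RefSeq, while GENCODE M21 starts the gene 26 bases earlier for Cdk1 and 9 bases earlier for Cdc20.
Cdk1 (chr10:69352913-69353032, minus strand): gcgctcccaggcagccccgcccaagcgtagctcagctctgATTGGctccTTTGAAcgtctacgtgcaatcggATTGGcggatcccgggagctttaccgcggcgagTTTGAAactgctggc
Plk1 (chr7:122159315-122159434, plus strand): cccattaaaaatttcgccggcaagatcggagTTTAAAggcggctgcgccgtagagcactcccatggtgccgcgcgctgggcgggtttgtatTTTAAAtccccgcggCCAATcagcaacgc
Cdc20 (chr4:118437344-118437463, minus strand): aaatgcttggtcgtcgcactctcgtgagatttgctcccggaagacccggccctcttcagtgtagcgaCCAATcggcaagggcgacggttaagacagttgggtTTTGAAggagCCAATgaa
Top2a (chr11:99024190-99024309, minus strand): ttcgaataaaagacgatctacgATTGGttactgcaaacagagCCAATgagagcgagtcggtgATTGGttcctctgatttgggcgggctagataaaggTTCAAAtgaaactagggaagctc
Mki67 (chr7:135716380-135716499, minus strand): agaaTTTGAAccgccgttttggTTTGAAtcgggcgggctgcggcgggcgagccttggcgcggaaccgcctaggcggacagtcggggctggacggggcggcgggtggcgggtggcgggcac
Cdk1 and Plk1 each held the 6-base motif 2 times in these windows, close to at least 1 CCAAT box. Mki67 held TTTGAA only farther from the start, at 98 bases at the nearest. In the RefSeq promoter of Pttg1 neither run of letters was found within 250 bases. All of the 120 bases nearest that start lie inside the Pttg1 gene in GENCODE M21, and the bases before the GENCODE start were not searched.

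All 4 tumors contained mesenchymal RNA: none of 9 mesenchymal markers was at 0 in any sarcoma, and their summed level was 5496 and 1804 FPKM in Ctl 1 and Ctl 2 and 4138 and 1396 FPKM in ATO 1 and ATO 2 (FPKM is a count scaled to exon length and to the total count). In ATO 1 most of this sum was collagen I, with Col1a1 at 2413 and Col1a2 at 1322 FPKM, so the sums do not rank the tumors by mesenchymal content. Vim went another way, with 581 and 812 FPKM in Ctl 1 and Ctl 2 and 131 and 272 in ATO 1 and ATO 2. Of the 9 markers, 3 were lower in both ATO tumors than in both Ctl tumors and 0 higher, beside 20.2% and 19.7% of all genes tested. Total counts ranged from 15259695 to 18134000. The sarcoma ATO 2 stood apart, since mitochondrially encoded genes gave 14.7% of its counts and no more than 2.59% of those of any other tumor, and its TMM factor, which corrects for such differences in composition, was 0.822 against 1.01 to 1.11.

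The mitosis genes as a group were lowest in ATO 2 and highest in Ctl 1, with ATO 1 and Ctl 2 between them. Their counts summed to 46373 in Ctl 1 and 26403 in Ctl 2, against 35154 in ATO 1 and 4110 in ATO 2. As CPM, which is the count scaled to the total count, this was 269 in ATO 2 (95% exact binomial interval 261 to 278), 1939 in ATO 1 (1918 to 1959), 1469 in Ctl 2 (1451 to 1487) and 2655 in Ctl 1 (2631 to 2679), intervals that cover counting error only. Thus 1 of the ATO tumors had more mitosis RNA than 1 of the Ctl tumors, and the other had less than either. After TMM normalization the sums were 2439, 1330, 1931 and 329 CPM for Ctl 1, Ctl 2, ATO 1 and ATO 2, in the same order.

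**Figure D1:**
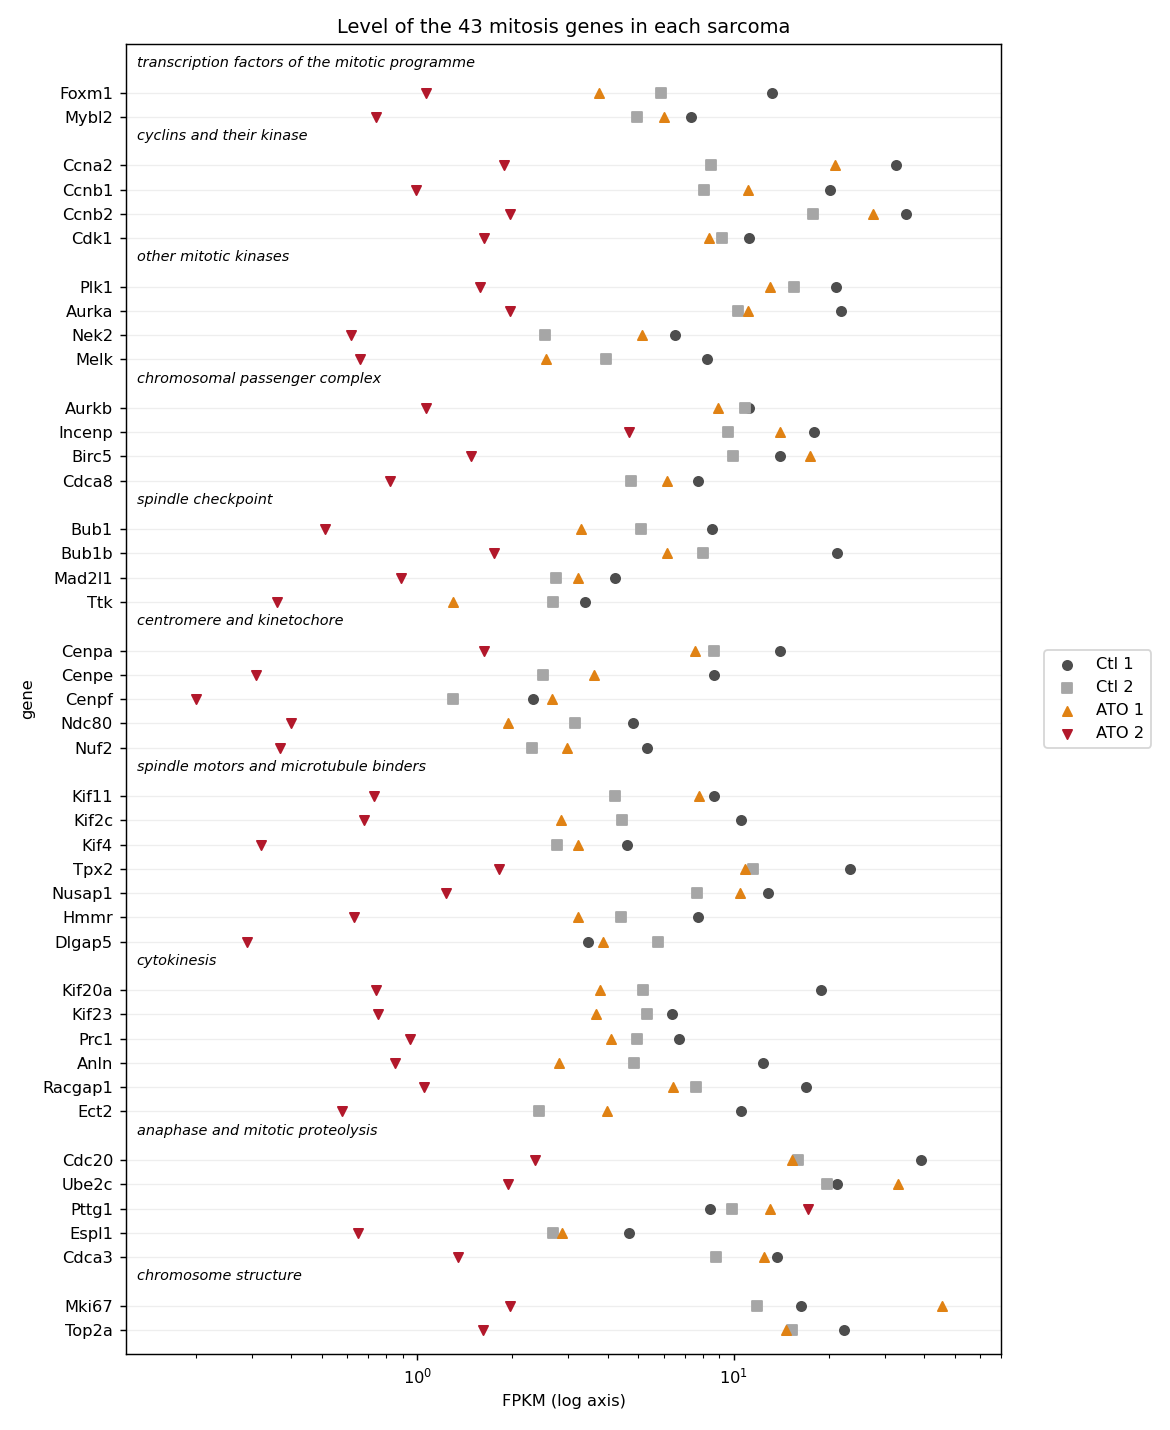
Level of each mitosis gene in FPKM (log axis) by role, 1 point per sarcoma. ATO 2 is the lowest point for every gene but Pttg1, where it is the highest at 17.2 FPKM, and Mki67 in ATO 1 is the highest point of the plot at 45.4 FPKM.

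The genes varied together from tumor to tumor. ATO 2 was the lowest of the 4 sarcomas for 42 of 43 genes, where it was lowest for 25.6% of all 17188 genes tested. Ctl 1 was the highest for 37 of 43, against 26.9% of all genes. Both counts were the same on FPKM. The level in ATO 2 was at least 2-fold below each other sarcoma for 41 genes (4.41% of all genes), at least 3-fold for 35 (1.98%) and at least 5-fold for 10 (0.64%). Between tumors of the same group the median fold was 5.20 for ATO 1 over ATO 2 and 1.76 for Ctl 1 over Ctl 2, in TMM-normalized CPM. Between groups it was 8.74 for Ctl 1 over ATO 2, 4.74 for Ctl 2 over ATO 2, 1.50 for Ctl 1 over ATO 1 and 1.18 for ATO 1 over Ctl 2. Hence the ATO sarcomas differed more from each other than ATO 1 did from either Ctl sarcoma, and on the log2 scale the difference between the ATO sarcomas exceeded that between the Ctl sarcomas for all 43 genes (51.7% of all genes tested) and that between the groups for 35 (57.1%). The smallest counts in ATO 2 were 27 for Kif4 and for Ttk (95% exact Poisson interval 17.8 to 39.3), and for 42 genes the counting interval in ATO 2 lay below those of the other 3 sarcomas.

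Among the transcription factors, Foxm1, which drives the late genes, measured 3.76 FPKM in ATO 1 and 1.07 in ATO 2, beside 13.2 in Ctl 1 and 5.91 in Ctl 2. Both ATO tumors lay below both Ctl tumors. Mybl2, the B-Myb that joins MuvB first, measured 0.74 FPKM in ATO 2, 6.02 in ATO 1, 4.93 in Ctl 2 and 7.33 in Ctl 1. Here ATO 1 lay between the Ctl tumors, so that the groups overlapped. The Foxm1 gene lies at chr6:128362967-128376146 and Mybl2 at chr2:163054687-163084688 (GRCm38, GENCODE M21).

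The cyclins and their kinase had the pattern of the whole group. Ccnb1, the cyclin B1 that activates Cdk1 at mitotic entry, measured 20.1 FPKM in Ctl 1 and 8.04 in Ctl 2, against 11.1 in ATO 1 and 0.99 in ATO 2. Cdk1 itself measured 11.1, 9.19, 8.34 and 1.63 FPKM in the same order of sarcomas. Ccnb1 in ATO 1 lay between the Ctl tumors, while Cdk1 was lower in both ATO tumors than in both Ctl tumors, in ATO 1 by a small margin. In TMM-normalized CPM ATO 1 and Ctl 2 were nearly tied for Cdk1, at 40.98 and 41.07. Ccna2 (cyclin A2) and Ccnb2 (cyclin B2) also had ATO 1 between the Ctl tumors, and they measured 1.88 and 1.97 FPKM in ATO 2 against at least 8.46 and 17.8 FPKM elsewhere. Over 12.5% of its exons Ccna2 overlaps a gene on the other strand, and whether reads were counted by strand is not stated in the sources used here, so its values are uncertain. The Ccnb1 pseudogene held at most 6 counts in a sarcoma. The Ccnb2 pseudogene held at most 33, which was in ATO 2, where Ccnb2 itself held 46 counts. What its reads mean for the Ccnb2 value was not tested.

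Of the other kinases, Plk1, which matures centrosomes and promotes entry and exit from mitosis, measured 13.0 FPKM in ATO 1 and 1.58 in ATO 2, beside 21.1 in Ctl 1 and 15.5 in Ctl 2. Melk, a kinase of dividing cells, measured 0.66 FPKM in ATO 2, 2.56 in ATO 1, 3.95 in Ctl 2 and 8.21 in Ctl 1. For both, the ATO tumors lay below the Ctl tumors, ATO 1 nearer to Ctl 2 than to ATO 2. Aurka, the spindle pole kinase, and Nek2, which splits the centrosomes, had ATO 1 between the Ctl tumors, with 1.97 and 0.62 FPKM in ATO 2.

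The chromosomal passenger complex corrects wrong attachments of chromosomes to the spindle, and the RNA levels of its genes did not keep fixed proportions. Its kinase Aurkb measured 11.2 FPKM in Ctl 1 and 10.9 in Ctl 2, against 8.91 in ATO 1 and 1.07 in ATO 2. Its inhibitor-of-apoptosis family subunit Birc5 (survivin) measured 17.4 FPKM in ATO 1 and 1.48 in ATO 2, beside 14.0 in Ctl 1 and 9.91 in Ctl 2. For Aurkb both ATO tumors lay below both Ctl tumors, as in 20.2% of all genes tested, with ATO 1 far nearer to the Ctl tumors than to ATO 2. Birc5 was highest in one ATO tumor and lowest in the other. Incenp, the scaffold of the complex, measured 4.66 FPKM in ATO 2, 14.0 in ATO 1, 9.60 in Ctl 2 and 18.0 in Ctl 1, and its fold of 1.53 between the next lowest sarcoma and ATO 2 was the smallest among the genes lowest in ATO 2. The targeting subunit Cdca8 (borealin) had ATO 1 between the Ctl tumors.

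The spindle checkpoint genes encode the proteins that hold anaphase until every chromosome is attached. Bub1b (BubR1) measured 21.1 FPKM in Ctl 1 and 7.97 in Ctl 2, against 6.14 in ATO 1 and 1.75 in ATO 2. Bub1 and Ttk (Mps1), the kinases of the checkpoint, likewise had both ATO tumors below both Ctl tumors, with 3.29 and 1.30 FPKM in ATO 1 and 0.51 and 0.36 FPKM in ATO 2. Mad2l1 (Mad2), which binds Cdc20, measured 3.23 FPKM in ATO 1 and 0.89 in ATO 2, beside 4.21 in Ctl 1 and 2.75 in Ctl 2. It was the 1 of the 4 checkpoint genes with overlapping groups. Among all genes tested, 20.2% had both ATO tumors below both Ctl tumors.

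At the centromere and kinetochore, Cenpa, the histone H3 variant that marks centromeres, and Ndc80, which grips microtubule ends, had both ATO tumors below both Ctl tumors. For Cenpa the levels were 1.63 FPKM in ATO 2, 7.57 in ATO 1, 8.66 in Ctl 2 and 14.0 in Ctl 1. Nuf2, the partner of Ndc80 in the same rod, had ATO 1 between the Ctl tumors, as did the kinetochore motor Cenpe. Cenpf, a large late-cycle kinetochore protein, measured 2.33 FPKM in Ctl 1 and 1.30 in Ctl 2, against 2.66 in ATO 1 and 0.20 in ATO 2. It was 1 of 4 genes, with Mki67, Ube2c and Birc5, that were highest in ATO 1 and lowest in ATO 2.

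Among the spindle motors and microtubule binders, Kif2c (MCAK), which removes tubulin from microtubule ends, measured 2.84 FPKM in ATO 1 and 0.68 in ATO 2, beside 10.5 in Ctl 1 and 4.43 in Ctl 2. Hmmr, a hyaluronan receptor that also binds the spindle, was the other gene of the 7 with both ATO tumors below both Ctl tumors in TMM-normalized CPM. That is a share of 28.6%, beside 20.2% of all genes tested. Dlgap5 (HURP), which bundles spindle microtubules, measured 0.29 FPKM in ATO 2, 3.87 in ATO 1, 5.75 in Ctl 2 and 3.47 in Ctl 1. It was the 1 gene highest in Ctl 2, and its fold of 9.04 between the next lowest sarcoma and ATO 2 was the largest of the 43. The motors Kif11 (Eg5) and Kif4 and the spindle proteins Tpx2 and Nusap1 had ATO 1 between the Ctl tumors in TMM-normalized CPM, and 15.1% of the Kif4 exons overlap a gene on the other strand.

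For 5 of the 6 cytokinesis genes both ATO tumors lay below both Ctl tumors, which held for 20.2% of all genes tested. Anln (anillin), the scaffold of the contractile ring, measured 12.4 FPKM in Ctl 1 and 4.84 in Ctl 2, against 2.80 in ATO 1 and 0.85 in ATO 2. Kif20a (MKLP2), a motor of the central spindle, measured 3.78 FPKM in ATO 1 and 0.74 in ATO 2, beside 18.8 in Ctl 1 and 5.18 in Ctl 2. Kif23, Prc1 and Racgap1, which build the central spindle, had the same order, with 3.68, 4.09 and 6.44 FPKM in ATO 1 and 0.75, 0.95 and 1.05 FPKM in ATO 2. The exception was Ect2, the exchange factor that activates RhoA at the cleavage site, with 2.43 FPKM in Ctl 2 and 3.97 in ATO 1. Of the exons of Kif20a, 29.3% overlap Cdc23 on the other strand, and of those of Prc1 11.1% overlap another gene.

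The genes of anaphase and mitotic proteolysis held the member that went against all others. Pttg1 (securin, chr11:43420250-43426251), the inhibitor of separase that must be destroyed for sister chromatids to part, measured 17.2 FPKM in ATO 2, 13.0 in ATO 1, 9.90 in Ctl 2 and 8.42 in Ctl 1. Both ATO tumors lay above both Ctl tumors, and ATO 2 was the highest of the 4. Espl1, separase itself, measured 4.67 FPKM in Ctl 1 and 2.68 in Ctl 2, against 2.87 in ATO 1 and 0.65 in ATO 2. Securin RNA was therefore 4.53 times separase RNA in ATO 1 and 26.4 in ATO 2, beside 1.80 in Ctl 1 and 3.69 in Ctl 2, by FPKM. Cdc20, the activator that directs the APC/C to securin and cyclin B, measured 2.35 FPKM in ATO 2, 15.2 in ATO 1, 15.9 in Ctl 2 and 39.1 in Ctl 1, so that ATO 1 and Ctl 2 were close and ATO 2 stood far below. Ube2c, the ubiquitin-conjugating enzyme of the APC/C, measured 21.1 FPKM in Ctl 1 and 19.7 in Ctl 2, against 33.1 in ATO 1 and 1.94 in ATO 2. Over 22.8% of its exons Ube2c overlaps Tnnc2 on the other strand, a skeletal muscle troponin with 7543 counts in ATO 1, 634 in ATO 2, 78 in Ctl 2 and 0 in Ctl 1, and what Tnnc2 reads add to the Ube2c value was not tested. Cdca3, which helps to degrade Wee1, had ATO 1 between the Ctl tumors.

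Of the chromosome structure genes, Mki67, which coats mitotic chromosomes and encodes the Ki-67 proliferation antigen, measured 45.4 FPKM in ATO 1 and 1.96 in ATO 2, beside 16.3 in Ctl 1 and 11.9 in Ctl 2. Top2a, the topoisomerase that disentangles sister chromatids, measured 1.61 FPKM in ATO 2, 14.6 in ATO 1, 15.3 in Ctl 2 and 22.3 in Ctl 1. The highest and the lowest Mki67 level were thus both in ATO tumors. Mki67 per Top2a, by FPKM, was 0.733 in Ctl 1 and 0.777 in Ctl 2, against 3.10 in ATO 1 and 1.22 in ATO 2. Of the mitosis counts, Mki67 alone made up 23.5% in ATO 1 and 6.19% to 8.12% elsewhere, and without it ATO 1 had 1482 CPM of mitosis RNA beside 1350 in Ctl 2 and 2491 in Ctl 1.

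**Figure D2:**
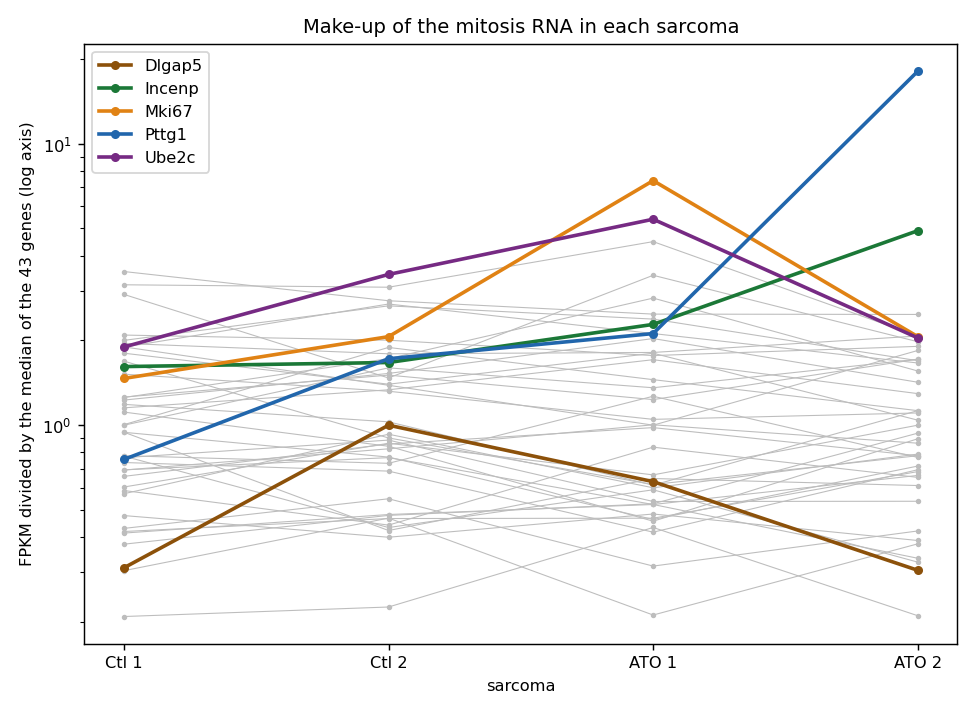
FPKM of each mitosis gene divided by the median of the 43 genes in the same sarcoma (log axis), with lines joining the values of 1 gene and no order among the sarcomas. The lines of 27 genes stay within a range of 1 on the log2 scale, while Pttg1 is at 18.1 times the median in ATO 2 and 0.76 times in Ctl 1, and Mki67 is at 7.39 times the median in ATO 1.

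To compare the make-up of the mitosis RNA, each level was divided by the median of the 43 genes in its own sarcoma. That median was 0.95 FPKM in ATO 2, 6.14 in ATO 1, 5.75 in Ctl 2 and 11.1 in Ctl 1. Relative to it, the range over the sarcomas was under 1 on the log2 scale for 27 genes, with a median range of 0.79. Aurka and Tpx2, which act together at the spindle poles, kept the steadiest share, with ranges of 0.21 and 0.24. Ranges over 2 were seen for 2 genes, Mki67 (2.33) and Pttg1 (4.58), and the next were Dlgap5 (1.71), Incenp (1.60) and Ube2c (1.51). Of the mitosis counts, Pttg1 made up 12.7% in ATO 2 and 0.634% to 1.35% elsewhere.

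The comparison of the treatment groups asked whether mitosis genes differed with ATO beyond the spread between tumors. In edgeR's quasi-likelihood test with Benjamini-Hochberg adjustment over 17188 genes, an adjusted p of 0.05 was passed by 0 of 43 mitosis genes (lowest adjusted p 0.579), and 0% of all genes passed in either direction. At an unadjusted p under 0.05 there was 1 mitosis gene, Anln, lower in ATO, where 3.07% of all genes were lower and 5.44% higher. DESeq2 called 716 genes in all and edgeR without a filter on low counts 541, each with 0 mitosis genes, against 0.95% and 0.282% of all genes called lower. The fitted level was lower in ATO for 41 of 43 mitosis genes, against 50.8% of all genes, with a median log2 fold change of -1.03 against -0.016 for all genes. Both ATO tumors lay below both Ctl tumors for 17 genes and above them for 1, against 20.2% and 19.7% of all genes. On FPKM as deposited 20 genes lay below, since Top2a, Tpx2 and Cdc20 had slightly less in ATO 1 than in Ctl 2 on that scale. With DESeq2 size factors 16 genes lay below. With 2 tumors against 2 an exact two-sided permutation test of a single value cannot give a p below 0.333.

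The size of this difference turned on single tumors. Without ATO 1 the median log2 fold change was -2.81, and 42 genes were lower in ATO 2 than in both Ctl tumors, as were 35.2% of all genes. Without ATO 2 it was -0.23, with 28 genes fitted lower (54.2% of all genes) and 15 higher in ATO. Without Ctl 1 it was -0.48 and without Ctl 2 it was -1.35, where 37 genes were lower in both ATO tumors than in Ctl 1, as were 35.5% of all genes. An adjusted p of 0.05 in edgeR was passed by 0 mitosis genes in each of these fits. At an unadjusted p under 0.05 in edgeR there were 37 mitosis genes lower without ATO 1 (1.82% of all genes), 1 higher without ATO 2 (5.12%), 0 in either direction without Ctl 1 (5.17%) and 3 lower without Ctl 2 (2.9%). Compared with the Ctl tumors alone, ATO 1 lay between them for 21 genes, below both for 17 and above both for 5, where the shares over all genes were 30.8%, 34.5% and 34.5%.

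**Figure D3:**
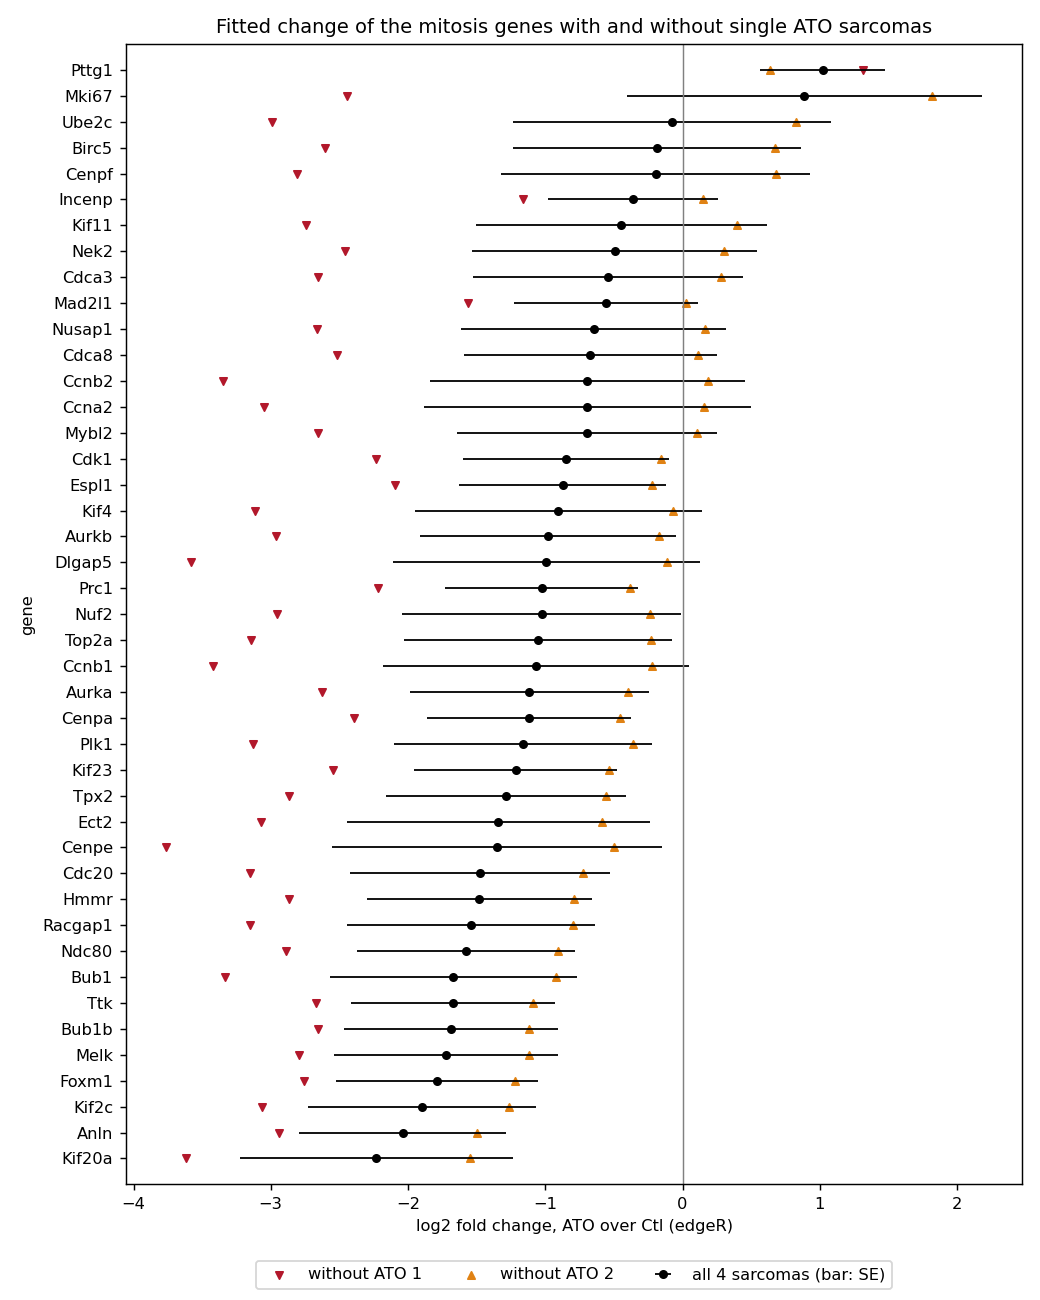
Fitted log2 fold change of each mitosis gene, ATO over Ctl, from edgeR, with all 4 sarcomas (black, bar: standard error) and with either ATO sarcoma left out. All points without ATO 1 lie below 0 except that of Pttg1, and the points without ATO 2 lie on both sides of 0.

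The 5 genes with the lowest fitted change came from the cytokinesis, motor, kinase and transcription factor groups. In edgeR's quasi-likelihood test the log2 fold change was -2.23 (SE 0.99, adjusted p = 0.604) for Kif20a, -2.04 (SE 0.75, adjusted p = 0.579) for Anln, -1.90 (SE 0.83, adjusted p = 0.602) for Kif2c, -1.79 (SE 0.74, adjusted p = 0.596) for Foxm1 and -1.72 (SE 0.82, adjusted p = 0.624) for Melk. Over all alternatives their adjusted p ranged from 0.150 to 0.922. Their sign did not turn, but their size moved with single tumors: without ATO 1 the values were -3.62 (Kif20a), -2.94 (Anln), -3.06 (Kif2c), -2.76 (Foxm1) and -2.80 (Melk), without ATO 2 they lay between -1.55 and -1.12, and without Ctl 1 between -1.19 and -1.01. In TMM-normalized CPM, Anln (chr9:22332012-22389188) averaged 17.4 ± 11.2 in ATO and 71.4 ± 44.9 in Ctl, and Foxm1 averaged 14.5 ± 9.90 in ATO and 50.3 ± 27.6 in Ctl (SD, n = 2 each). These 5 genes were taken for their low fitted change. In all 5, both ATO tumors lay below both Ctl tumors, as in 20.2% of all genes tested. The spread within each group was wide beside the difference.

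Of the 10 marker genes whose values were to be printed, Foxm1 is among the 5 lowest and Birc5 and Mki67 among the 5 highest, and the other 7 follow here. In edgeR's quasi-likelihood test the log2 fold change was -1.48 (SE 0.95, adjusted p = 0.699) for Cdc20, -1.16 (SE 0.94, adjusted p = 0.757) for Plk1, -1.07 (SE 1.11, adjusted p = 0.818) for Ccnb1, -1.05 (SE 0.98, adjusted p = 0.795) for Top2a, -0.98 (SE 0.94, adjusted p = 0.798) for Aurkb, -0.85 (SE 0.75, adjusted p = 0.784) for Cdk1 and -0.70 (SE 0.95, adjusted p = 0.861) for Mybl2. Each of these 7 values lay within 2 SE of 0. Without ATO 1 they lay between -3.42 (Ccnb1) and -2.23 (Cdk1), and without ATO 2 between -0.73 (Cdc20) and 0.10 (Mybl2), so that Mybl2 changed its sign. Without Ctl 1 Ccnb1 was at -0.25, Cdc20 at -0.67 and Mybl2 at -0.37. Top2a (chr11:98992943-99024189) averaged 74.5 ± 80.3 CPM in ATO and 154.5 ± 42.5 CPM in Ctl (SD, n = 2 each), so that its SD within ATO was larger than its mean.

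At the upper end, Pttg1 had a log2 fold change of 1.02 (SE 0.46, adjusted p = 0.604 in edgeR's quasi-likelihood test), which stayed between 0.64 and 1.31 over all alternatives, with adjusted p from 0.519 to 0.888. It averaged 33.9 ± 11.4 CPM in ATO and 16.7 ± 1.75 CPM in Ctl (SD, n = 2 each). Mki67 (chr7:135689784-135716361) had a fold change of 0.89 on the log2 scale (SE 1.29, adjusted p = 0.871 in edgeR), with 239.4 ± 304.5 CPM in ATO and 129.5 ± 30.3 CPM in Ctl (SD, n = 2 each). Its direction turned with 1 tumor, to -2.44 without ATO 1, and it was 1.82 without ATO 2. The fold changes of Ube2c (-0.076, SE 1.16), Birc5 (-0.19, SE 1.05) and Cenpf (-0.20, SE 1.13) had adjusted p of 0.992, 0.972 and 0.974 in edgeR and also turned, to 0.83, 0.67 and 0.68 without ATO 2, and without Ctl 1 Birc5 was at 0.090 and Cenpf at 0.29. For these 4 genes neither direction held in both ATO tumors.

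Genes of neighbouring pathways were then measured in the same way. Of 61 further mitosis genes, such as condensin and centromere subunits, 59 had a lower fitted level in ATO, and ATO 2 was lowest for 57. The median log2 fold change was -0.85, and the median fold of ATO 1 over ATO 2 was 4.37. S phase genes, which copy the DNA earlier in the cycle, varied less: of 40, 30 were fitted lower, ATO 2 was lowest for 37, the median log2 fold change was -0.45, and the median fold of ATO 1 over ATO 2 was 2.85. The subunits of the APC/C and of cohesin, the machinery on which Cdc20 and separase act, went both ways between the ATO tumors, with ATO 2 below ATO 1 for 17 of 22 and above it for 5, at a median fold of ATO 1 over ATO 2 of 1.26. Of these genes 17 were fitted lower in ATO, with a median log2 fold change of -0.34. For the MuvB core, RB family and NF-Y genes, the regulators of the mitosis genes, the median log2 fold change was 0.11 over 15 genes, of which 6 were fitted lower, and ATO 1 over ATO 2 was 1.47. Both ATO tumors lay below both Ctl tumors for 19 of the further mitosis genes (31.1%), 6 of the S phase genes (15.0%), 10 of the APC/C and cohesin genes (45.5%) and 0 of the regulators, against 20.2% of all genes, and above them for 0, 0, 1 and 3 genes, against 19.7% of all genes. None of the lists had a gene past an adjusted p of 0.05 in edgeR, and at an unadjusted p under 0.05 in edgeR there were 3 further mitosis genes, 1 S phase gene and 1 APC/C or cohesin gene lower, where 3.07% of all genes were lower, and 3 regulators higher, where 5.44% of all genes were higher. Without ATO 2 the S phase median was 0.047, and without Ctl 1 it was 0.088.

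**Figure D4:**
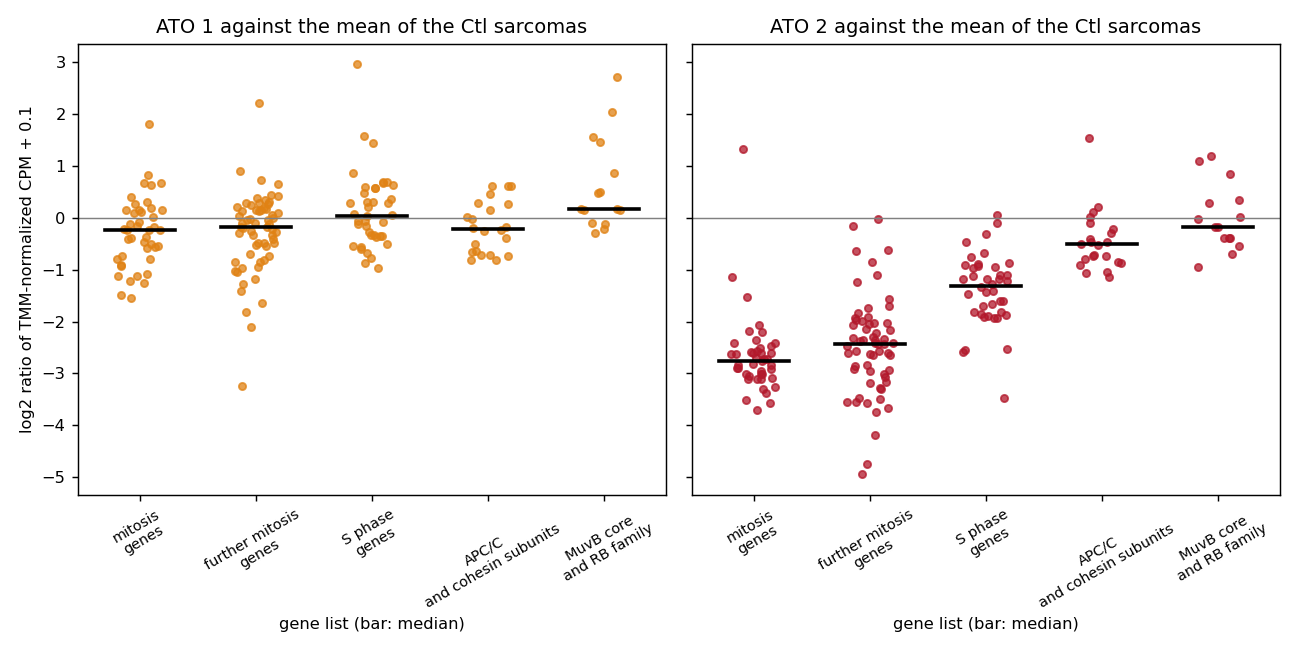
Log2 ratio of TMM-normalized CPM (plus 0.1) in ATO 1 (left) and ATO 2 (right) to the mean of the Ctl sarcomas, 1 point per gene and a bar at the median of each list. The median of the mitosis genes is -0.24 in ATO 1 and -2.76 in ATO 2, and that of the S phase genes is 0.043 and -1.31.

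Markers of other cell types differed between the same tumors. All 8 skeletal muscle markers were higher in both ATO tumors, with summed levels of 7.02 and 126 FPKM in the Ctl tumors, 14603 in ATO 1 and 1059 in ATO 2. All 6 adipocyte markers were higher in both ATO tumors too, with 12.8 and 66.6 FPKM in Ctl 1 and Ctl 2, 361 in ATO 1 and 1841 in ATO 2. In the Ctl tumors nearly all of this was Fabp4, with 12.6 FPKM in Ctl 1 and 66.1 in Ctl 2. Each other adipocyte marker was at most 0.42 FPKM there, and the defining markers Plin1 in Ctl 1 and Lep in both Ctl tumors were at 0. The sarcoma with the least mitosis RNA thus had the most adipocyte RNA and the highest share of mitochondrial counts. The 9 leukocyte markers summed to between 167 and 177 FPKM in the Ctl tumors and to 181 and 246 FPKM in ATO 1 and ATO 2, with Cd3g at 0 in Ctl 1. The 6 osteoblast markers summed to 577 and 111 FPKM in Ctl 1 and Ctl 2 and to 2312 and 874 FPKM in ATO 1 and ATO 2. Outside ATO 1 nearly all of this was Spp1, which other cells also make, with 870 FPKM in ATO 2, 564 in Ctl 1 and 105 in Ctl 2. The bone markers Sp7, Bglap and Ibsp measured 40.5, 58.5 and 291 FPKM in ATO 1 and at most 0.39, 0.93 and 0.35 FPKM in the other sarcomas, with Sp7 at 0 in Ctl 1 and in ATO 2. The part of tissue makeup or RNA quality in the mitosis gene levels was not tested, and with these 4 tumors it cannot be told apart from the tumor itself.

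**Figure D5:**
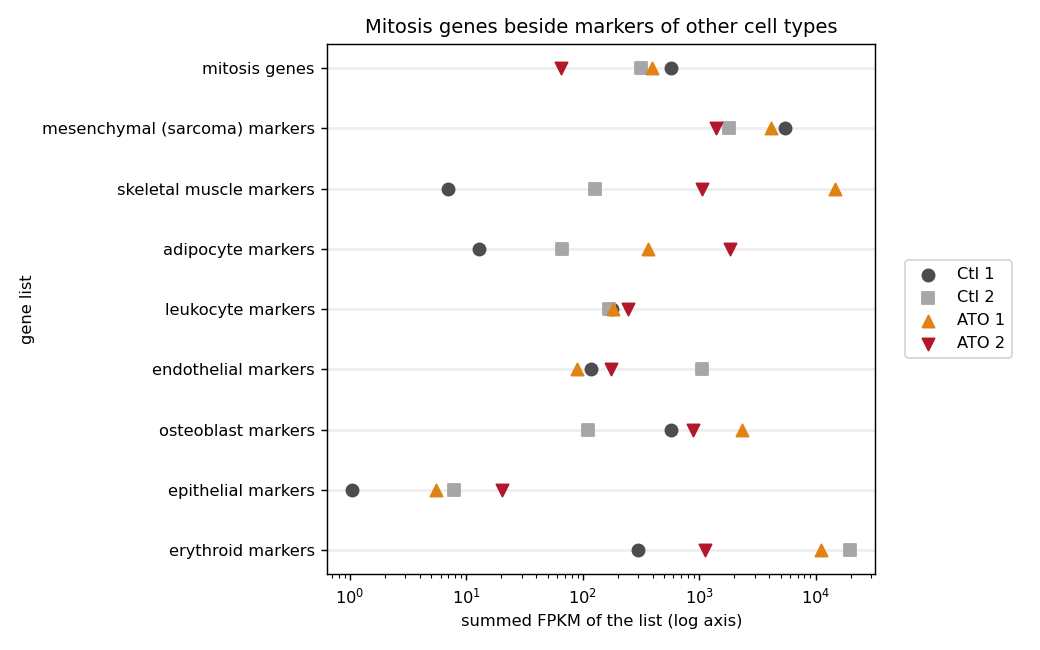
Summed FPKM (log axis) of the mitosis genes and of 8 lists of cell type markers, 1 point per sarcoma. The mitosis genes sum to 392 FPKM in ATO 1 and 65.2 in ATO 2, beside 569 in Ctl 1 and 313 in Ctl 2. The skeletal muscle and adipocyte markers are higher in both ATO tumors than in both Ctl tumors. The endothelial, epithelial and erythroid markers are not ordered in this way. Endothelial sums run from 89.8 FPKM in ATO 1 to 1054 in Ctl 2, and erythroid sums from 298 in Ctl 1 to 19843 in Ctl 2. Epithelial sums run from 1.05 FPKM in Ctl 1 to 20.2 in ATO 2.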

How the data were processed

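RNA-seq of 4 sarcomas (2 ATO, 2 Ctl), grouped by the treatment in their labels, was analysed. The authors aligned reads with HISAT2 (2.0.1 in the submitters' processing notes, with cutadapt 1.9.1) to GRCm38, counted them per gene with HTSeq and deposited raw counts. The authors also deposited FPKM, which equalled the count divided by exon length and total count to within 0.005. The strand setting is not given in the sources used here. The labels name TRIzol and a SMARTER kit, and the study's methods other kits.

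The test was the quasi-likelihood F-test of edgeR (version 4.0.16, R 4.3.3) on counts after filterByExpr and TMM scaling, with Benjamini-Hochberg adjustment over 17188 genes and a threshold of 0.05. SE is the absolute log2 fold change divided by the root of F. Levels are FPKM or TMM-normalized CPM, and median folds used CPM plus 0.1. The biological coefficient of variation was 62.5%. Alternatives were DESeq2 1.42.0, its size factors, library size only, no filter, no mitochondrially encoded genes, a replicate block and each sarcoma left out. The fit was tested on simulated data.

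Fold changes are printed for 10 markers and the 5 members lowest and highest in fitted change, together 17 genes. The members, 4 pathway lists, 8 marker lists, motifs and tests were chosen with earlier results of these data known. Positions are from GENCODE M21 and promoters from RefSeq GRCm38.p6. Comparing the order of the sarcomas on FPKM was chosen after seeing the data.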

Additional observations from a re-analysis of the deposited data

How the results depend on the processing

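No mitosis gene passed an adjusted p of 0.05 under any alternative listed in the methods, and with edgeR or DESeq2 the median log2 fold change of the mitosis genes stayed below 0 in each. The replicate numbers of the ATO and Ctl sarcomas do not pair the tumors in any source. Over all genes tested, same-numbered sarcomas did not deviate together (r = -0.021). For the mitosis genes they did, since Ctl 1 lay above Ctl 2 for 41 of 43 and ATO 1 above ATO 2 for 42. Among all 17188 genes tested these counts were 8354 and 8598. With the replicate block the median of the mitosis genes was -1.46, 1 gene was fitted higher, and Mki67 was -0.28. At an unadjusted p under 0.05 in edgeR that fit had 14 mitosis genes lower, where 1165 of all 17188 genes passed in either direction. The count of all genes called was 0 in edgeR, 716 in DESeq2 and 541 without a filter on low counts. With library size only, the median of all genes moved to -0.28, that of the APC/C and cohesin subunits to -0.61 and that of the MuvB core and RB family to -0.15, so that against all genes the first was lower and the second higher. Leaving out 1 sarcoma in turn gave medians from -2.81 to -0.23 for the mitosis genes, -2.49 to -0.17 for the further mitosis genes, -1.34 to 0.088 for the S phase genes and -0.20 to 0.40 for the MuvB core and RB family. It gave 1 to 15 mitosis genes fitted higher in ATO, 16 to 42 with all ATO sarcomas below all Ctl sarcomas and 1 to 5 above. The log2 fold changes ranged from -2.44 to 1.82 for Mki67, -2.60 to 0.67 for Birc5, -2.81 to 0.68 for Cenpf, -2.65 to 0.10 for Mybl2 and -2.99 to 0.83 for Ube2c. Single values were 0.090 for Birc5 and 0.29 for Cenpf without Ctl 1, and 0.047 for the S phase genes without ATO 2. A group left with 1 sarcoma was assumed to vary like the other group. The cause of these shifts was not tested. The smallest count of a mitosis gene in any sarcoma was 27.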
